A study of Mus musculus with 14 samples.

Results

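The collagen genes of the mouse were described here by the chromosome contacts of their promoters in cranial neural crest cells (CNCCs). Members were the protein-coding genes of the GENCODE vM21 annotation (mm10) whose symbol has the form Col, a number, the letter a and a second number. There were 44 such genes, and 43 of them had a transcription start site on a captured fragment, against 19017 protein-coding genes with such a fragment in the whole series. Col5a2, which codes for a chain of collagen V, had none, and no contact of its promoter could be read. The 43 genes used 42 of 22171 bait fragments and fell into 40 distinct sets of baits, because Col4a1 and Col4a2, Col4a3 and Col4a4, and Col4a5 and Col4a6 lie head to head and share a bait. A further 3 baits also hold start sites of other protein-coding genes. That of Col11a2 carries H2-Ke6, Ring1, Rxrb and Slc39a7, that of Col5a3 carries Rdh8, and a bait of Col7a1 carries Ucn2. Baits of Col1a2, Col3a1, Col5a1, Col6a1, Col6a4, Col15a1 and Col16a1 hold start sites of annotated genes that are not protein-coding. Contacts of all these collagen genes cannot be told apart from those of the neighbours on the same bait.

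Promoter capture Hi-C (PCHi-C) joins crosslinked HindIII fragments that lie close in the nucleus and enriches those that contain a promoter. The study had 7 groups with 2 libraries each: wild-type CNCCs at E10.5 from the frontonasal process (FNP), the maxillary process (Mx), the mandibular process (Md) and the second pharyngeal arch (PA2), PA2 cells of E10.5 Hoxa2 knockout embryos, and wild-type pinna cells, which derive from PA2, at E12.5 and E14.5. Wild-type cells were Wnt1::Cre;ROSARFP cells sorted for the red reporter, in which the Wnt1 promoter drives Cre in the progenitors of the neural crest. Knockout cells were Hoxa2EGFP/EGFP cells sorted for green fluorescence, so genotype and reporter cannot be told apart. Tissue was dissociated with trypsin at E10.5 and E12.5 and with papain at E14.5, so stage and enzyme cannot be told apart in comparisons that include E14.5. Neither the knockout allele nor the labelled cell type could be checked, since contact lists hold no expression.

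Collagens are triple-helical proteins of the extracellular matrix, built from alpha chains that come from the same gene or from different genes. Fibrillar collagens form the fibres of skin, bone and cartilage, FACIT collagens bind to the surface of those fibres, collagen IV forms the sheets of basement membranes, collagen VI forms beaded filaments around cells, and transmembrane collagens sit in the cell membrane. Cranial neural crest cells give rise to cartilage, bone and dermis of the face and to the connective tissue of the external ear, all of them rich in collagen.

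The deposited value of a contact is its CHiCAGO score, which grows with the excess of reads over the number expected from distance and from the 2 fragments, and each list holds only scores of 5 or more. A pair absent from a list was set to 0 here, although its true score lies anywhere below 5. A gene's total is the sum of the scores of its same-chromosome pairs, scaled to the same sum per library. The lists held between 113670 and 186248 same-chromosome pairs, and those of the 2 knockout libraries were the shortest. Md replicate 1 and E12.5 replicate 2, which are named as merged, held 46.5% and 62.7% of their pairs between chromosomes, against at most 5.61% elsewhere. Collagen baits took between 316 and 566 of the same-chromosome pairs of a library and from 0.225% to 0.335% of its summed score, the 2 highest shares being those of the E14.5 libraries.

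The sequences of 4 collagen promoters are shown because the contacts of these genes are plotted and described fragment by fragment. Each window runs from 250 bases before to 50 bases after a RefSeq start (GRCm38.p6) that lies on the gene's bait. Capitals mark the GC box (GGGCGG, or CCGCCC on the other strand), the CCAAT box (CCAAT or ATTGG) and the TATA box (TATAAA or TTTATA), none of which overlaps another in its letters.
Col6a1, chr10:76725995-76726294, minus strand: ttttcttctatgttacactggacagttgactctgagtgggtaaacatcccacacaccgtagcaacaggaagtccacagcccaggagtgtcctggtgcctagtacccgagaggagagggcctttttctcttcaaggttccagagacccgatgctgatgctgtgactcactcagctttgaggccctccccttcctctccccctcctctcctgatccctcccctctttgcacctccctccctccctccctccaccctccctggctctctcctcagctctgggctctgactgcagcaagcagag
Col6a2, chr10:76623581-76623880, minus strand: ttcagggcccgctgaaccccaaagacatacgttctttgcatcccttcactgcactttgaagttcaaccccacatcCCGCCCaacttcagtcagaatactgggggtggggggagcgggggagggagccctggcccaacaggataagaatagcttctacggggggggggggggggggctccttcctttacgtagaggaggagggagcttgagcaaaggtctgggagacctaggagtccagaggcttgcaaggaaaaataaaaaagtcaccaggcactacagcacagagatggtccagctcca
Col1a2, chr6:4505368-4505667, plus strand: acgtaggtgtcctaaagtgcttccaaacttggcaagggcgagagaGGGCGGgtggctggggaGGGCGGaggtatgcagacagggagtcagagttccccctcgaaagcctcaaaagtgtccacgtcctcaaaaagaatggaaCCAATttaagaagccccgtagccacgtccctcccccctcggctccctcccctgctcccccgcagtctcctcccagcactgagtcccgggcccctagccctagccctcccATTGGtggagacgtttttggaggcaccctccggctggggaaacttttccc
Col13a1, chr10:61979059-61979358, minus strand: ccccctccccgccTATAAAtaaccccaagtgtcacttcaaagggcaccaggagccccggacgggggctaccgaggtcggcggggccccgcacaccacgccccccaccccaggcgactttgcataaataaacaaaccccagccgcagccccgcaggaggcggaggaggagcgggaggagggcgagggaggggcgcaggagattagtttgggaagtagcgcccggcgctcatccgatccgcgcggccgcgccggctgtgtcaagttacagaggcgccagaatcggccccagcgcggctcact

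The Col1a2 window held 2 GC boxes and 2 CCAAT boxes, the Col6a2 window held 1 GC box, the Col13a1 window held 1 TATA box, and the Col6a1 window held none of the 3 motifs. Of 32851 promoter windows in the RefSeq table, 35.7% held a GC box, 37.4% a CCAAT box and 13.6% a TATA box. Of the 38 windows of the 35 collagen genes in that table, 23, 13 and 5 held them. GC content was 57.3% and 56.7% in the Col6a1 and Col6a2 windows, 61% in that of Col1a2 and 68.0% in that of Col13a1. The matches describe letters in these windows and do not show that a factor was bound. The TATAAA of the Col13a1 window lies at its upstream end, far from the start site.

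The collagen promoters covered a wide range of contact totals. Totals are given as scaled summed scores, and since they add up over fragments of unequal number and length they rank promoters by listed contact, not by expression. Of the 40 bait sets, 27 had a listed pair in all 14 libraries, 10 had a mean total over 100, and 13 had a mean total under 15. The median bait set had a mean total of 52.1, against 33.7 over the 17322 bait sets of all genes, and a mean of 6.93 listed pairs per library against 5.14.

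Col3a1, a fibrillar collagen of skin and vessels, had the highest total, with a mean of 290 ± 70.3 (SD, n = 14) and 25 to 59 listed fragments. It was followed by Col14a1 (273 ± 43.1), Col9a2 (263 ± 78.5) and Col12a1 (237 ± 49.5), which are FACIT collagens, and by the transmembrane collagen gene Col25a1 (218 ± 44.5; SD, n = 14 for each). These 5 genes stood closer to their neighbours in the order than the smaller of the SDs, and the next gene, Col1a1, which codes for a chain of collagen I, was set apart from Col25a1 by more (177 ± 33.2). The only bait of Col25a1 (chr3:130176883-130181496) lies inside the gene and holds 1 of its 3 start sites. The start at the gene's upstream end (130131501) was not on a bait, so its contacts could not be read. The places 7 to 12 were taken by Col11a1 (159), the shared bait of Col11a2 (147), Col23a1 (143), Col6a1 (121), Col26a1 (86.9) and the bait of Col5a3 and Rdh8 (79.3). The 12 bait sets held 71.8% of the summed collagen total. Over the whole order, 36 of 39 neighbouring bait sets differed by less than the smaller of their SDs.

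The classes held promoters of very unequal totals. Among the 10 fibrillar genes with a bait the median was 78.3, with Col3a1 highest and Col2a1, the cartilage collagen, lowest at 8.13. Col2a1 had a single listed fragment in 12 of 14 libraries, and the fragment most often listed lay 15.9 kb from the bait inside the gene. The 9 FACIT genes had a median of 21.9, from 8.39 for Col20a1 to 273 for Col14a1. The 6 beaded filament genes had a median of 46.2, from 5.59 for Col6a5 to 121 for Col6a1.

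The 4 transmembrane genes had the highest median, 107, and ran from 8.88 for Col17a1, a hemidesmosome collagen of epithelia, to 218 for Col25a1. The 3 shared baits of the basement membrane genes were low throughout, from 6.39 for Col4a3 and Col4a4 to 13.4 for Col4a1 and Col4a2, which start only 21 bases apart. The short chain genes ran from 21.6 for Col8a2 to 40.7 for Col10a1, the collagen of hypertrophic cartilage. The multiplexin genes had totals of 5.45 for Col15a1 and 20.8 for Col18a1, and Col7a1, Col26a1 and Col28a1, which belong to no other class, had between 57.1 and 86.9.

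**Figure D1:**
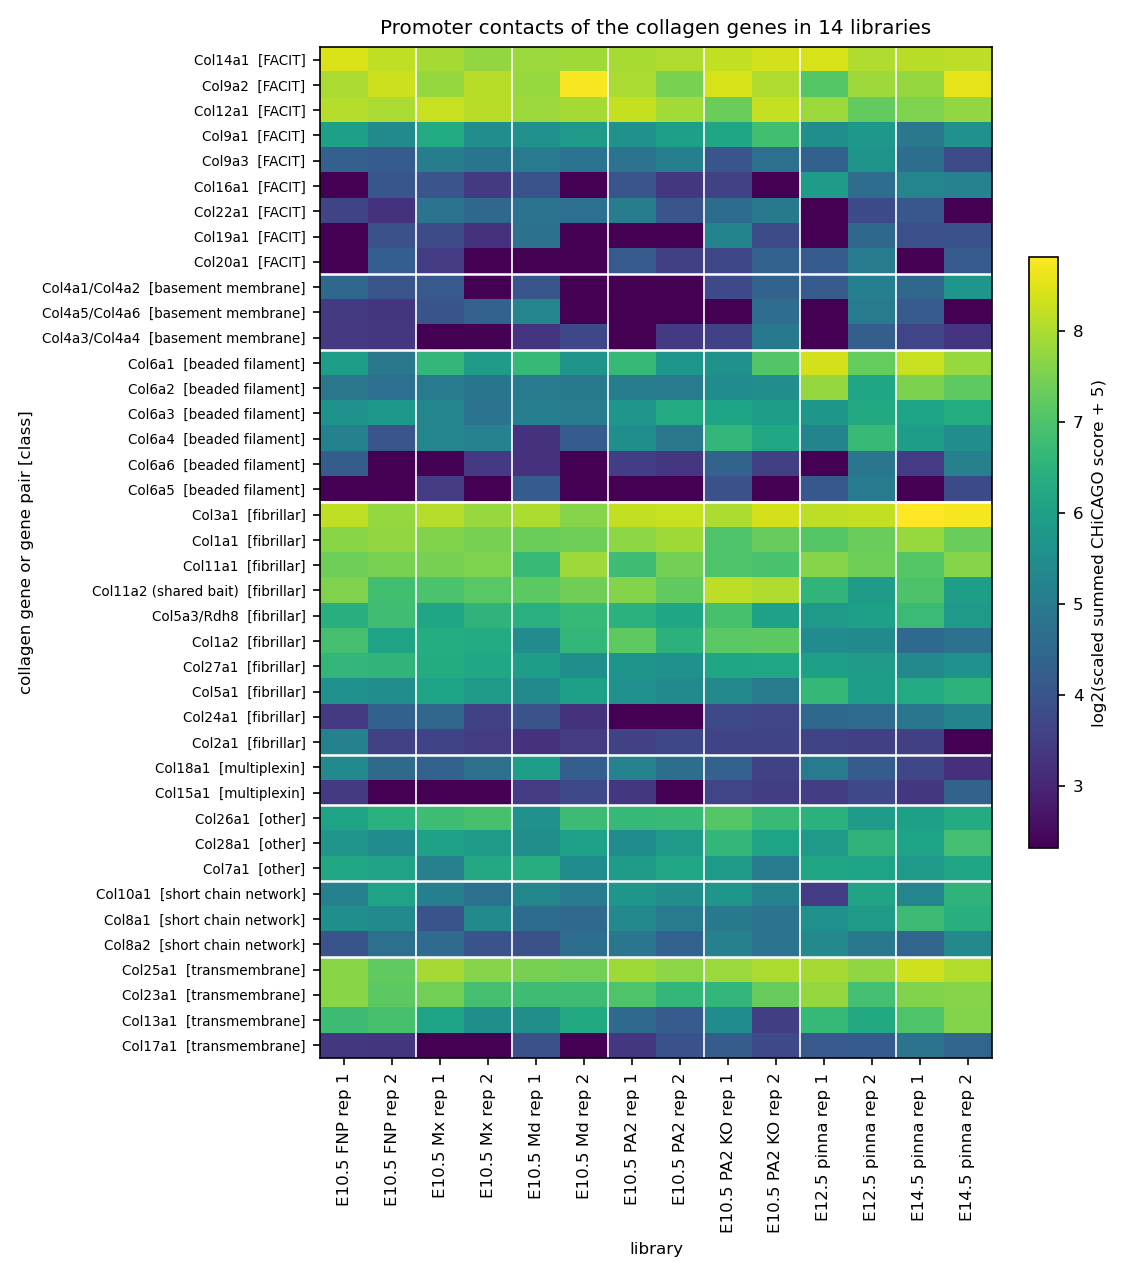
The contact total of each collagen bait set (rows, grouped by class) in each of the 14 libraries (columns) is drawn as log2 of the scaled summed CHiCAGO score plus 5, so the darkest cells are bait sets with no listed pair. Col3a1, Col14a1, Col9a2, Col12a1 and Col25a1 were high in every library, while Col6a1 and Col6a2 were brighter in the 4 pinna libraries than in the 10 E10.5 libraries.

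Across all libraries 1752 collagen pairs were listed, 931 of them (53.1%) in a single library and 58 in all 14. The pairs listed in all 14 libraries came from 16 bait sets and made up 12.6% of the 459 collagen pairs listed in at least 4 libraries, against 9.76% among all such pairs. The strongest joined the Col14a1 bait to a fragment 239 kb downstream that overlaps Mrpl13, a gene of the mitochondrial ribosome (chr15:55550150-55550929). Its score had a mean of 34.6, with the lowest value, 21.75, in knockout replicate 1 and the highest, 55.96, in E14.5 replicate 2. The neighbouring fragments 238 kb and 235 kb from the bait had mean scores of 30.7 and 25.4.

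Col1a1 held its strongest pair with a fragment 70.0 kb away that overlaps no protein-coding gene (chr11:94866531-94871684), with scores from 22.79 to 34.79 and a mean of 29.4. Col3a1 met a fragment 567 kb away inside Gulp1, a gene for an engulfment adaptor (chr1:44740656-44748461), with a mean score of 24.2 and a range from 20.08 to 30.22. In both contacts the E10.5 and pinna scores overlapped. A Col12a1 contact 939 kb from the bait, outside protein-coding genes (chr9:78774401-78777037), was the strongest of another gene, with a mean of 21.5.

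The farthest collagen pairs listed in both libraries of a group were found in the knockout. Col9a2 was listed with fragments 26848 kb away in Mfn2 (scores 6.47 and 6.40) and 23550 kb away (6.84 and 6.83), Col8a2 with a fragment 17771 kb away in Tut4 (5.90 and 5.63), and Col24a1 with a fragment 5729 kb away (6.25 and 6.06). None of these 4 pairs was listed in any of the other 12 libraries. The fifth, a Col10a1 pair over 2450 kb, was listed only in the Md libraries, at 12.40 in the merged library and 6.06 in the other. Over all collagen pairs, 3.16% and 4.37% lay beyond 2 Mb in the knockout libraries, within a range of 1.91% to 20.7%, and the highest share belonged to the merged E12.5 library.

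Col6a1 and Col6a2, which code for chains of collagen VI, lie 103 kb apart on chromosome 10 in the same orientation. Their baits (chr10:76716846-76732105 and chr10:76623244-76624326) formed the only pair that joined the promoters of 2 collagen genes, and it was listed in all 14 libraries. Its score was 11.14 and 7.85 in FNP, 13.94 and 9.88 in Mx, 12.91 and 9.34 in Md, 10.90 and 6.86 in PA2 and 7.31 and 8.15 in the knockout. The pinna scores were 24.64 and 22.15 (E12.5) and 23.41 and 28.13 (E14.5). All 4 pinna libraries lay above all 10 E10.5 libraries, and the groups did not overlap. Among the 159013 tested pairs of all genes, 1.69% had every pinna score above every E10.5 score, and among the 459 collagen pairs 21 did, of which 10 belonged to the Col6a1 bait and 3 to the Col6a2 bait, their joint pair counted once.

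Between the baits lies a stretch that both promoters met in the pinna. The region was chosen after its values were seen, so it is given as a description. From the Col6a1 bait, the number of listed fragments in the interval (chr10:76624327-76716845) was 10 and 8 in the E12.5 pinna and 12 and 8 in the E14.5 pinna, against 1 each in Mx replicate 1 and Md replicate 1 and 0 in the other 8 E10.5 libraries. From the Col6a2 bait it was 12 and 4 in the E12.5 pinna and 13 and 14 in the E14.5 pinna, against 0 to 2 in the E10.5 libraries, with 2 in each knockout library.

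A fragment of the interval 85.1 kb from the Col6a1 bait (chr10:76638244-76640569) had scores of 10.35 and 10.83 in the E12.5 pinna and 13.46 and 13.12 in the E14.5 pinna and was unlisted in all 10 E10.5 libraries. Of the 459 collagen pairs, 10 were listed in all 4 pinna libraries and in none at E10.5, 6 of them from Col6a1, 2 from Col6a2 and 1 each from Col1a2 and Col8a1. Over all genes this pattern held for 0.454% of tested pairs. A pair with this pattern passed the filter of 4 libraries through the pinna libraries alone.

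Outside the interval, the Col6a1 bait was listed with fragments of the Col6a2 gene in every library. Summed scores ran from 19.85 to 38.07 at E10.5 and were 82.36, 56.83, 86.07 and 93.12 in the pinna, without overlap. These sums include the Col6a2 bait and so the joint pair given above. Listed fragments in Mcm3ap, the gene beyond Col6a2, numbered 0 to 4 per E10.5 library and 7, 3, 7 and 5 in the pinna libraries, so that E12.5 replicate 2 lay within the E10.5 range. The E12.5 library with the lower value was in each case the merged replicate 2.

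**Figure D2:**
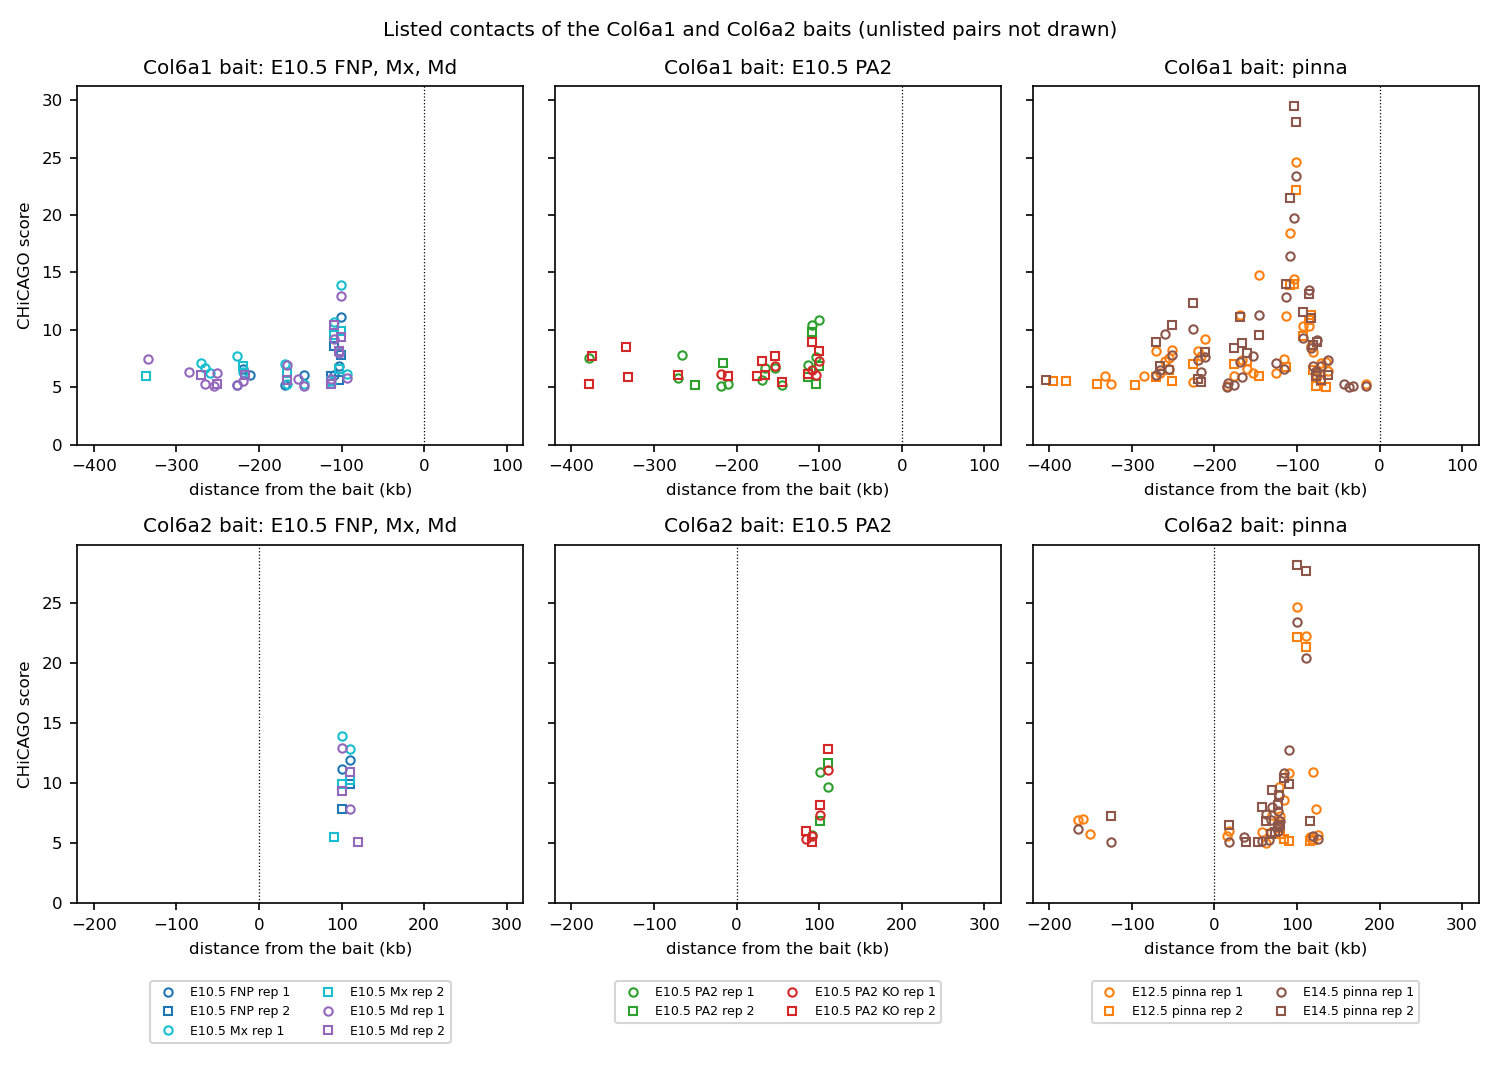
CHiCAGO scores (vertical axis, listed scores of 5 or more) of the Col6a1 bait (top) and the Col6a2 bait (bottom) are plotted against the distance of the contacted fragment from the bait in kb, in the direction of rising chromosome position. Circles and squares are replicates 1 and 2, and the pinna panels show scores above 20 at about 101 kb, where the other bait lies, and a filled interval between the baits.

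The wild-type PA2 lineage was followed from E10.5 PA2 to the E12.5 and E14.5 pinna in a limma fit over all 14 libraries and 17225 bait sets, on log2 of the scaled total plus 5. The 3 comparisons share their libraries pairwise and are not independent. From PA2 to E14.5, 4 of 40 collagen bait sets passed an adjusted p of 0.05, Col13a1, Col6a2 and Col24a1 higher and Col1a2 lower, against 2.86% of all bait sets (1.13% higher and 1.72% lower). The median difference over the 40 was 0.42, against -0.05 over all bait sets, both on the log2 scale.

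Col13a1 codes for a transmembrane collagen found at cell adhesions and the neuromuscular junction. The PA2 libraries had totals of 18.1 and 13.1, the E12.5 libraries 97.7 and 72.0, and the E14.5 libraries 126 and 191. The groups did not overlap and each later stage lay above the earlier. The difference between E14.5 and PA2 was 2.97 ± 0.52 (log2, SE; limma adjusted p = 0.00240), and that between E12.5 and PA2 was 2.12 ± 0.52 (adjusted p = 0.0691). Listed fragments inside the Col13a1 gene numbered 0 and 1 in PA2, 6 and 2 in the E12.5 pinna and 7 and 17 in the E14.5 pinna.

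Col1a2, which codes for the second chain of collagen I, went the other way. The PA2 totals were 143 and 85.7, those at E12.5 were 39.5 and 37.8, and those at E14.5 were 18.1 and 21.6. Again the 3 stages did not overlap, with the lowest values at E14.5. The difference was -2.23 ± 0.43 from PA2 to E14.5 (adjusted p = 0.00552) and -1.41 ± 0.43 from PA2 to E12.5 (adjusted p = 0.160). In FNP, Mx, Md and the knockout the total ran from 38.8 to 139, and the lowest of these values, in the merged Md library, lay within the range of the pinna.

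The Col1a2 contacts at E10.5 lay far from the bait (chr6:4500543-4513176) on either side. Within Asb4, about 0.89 Mb away, listed fragments numbered 2 to 8 in each of the 10 E10.5 libraries, 1 in E12.5 replicate 1 and 0 in the other 3 pinna libraries. One fragment there (chr6:5395235-5400035, 891 kb) was listed in all 10 E10.5 libraries, at 5.11 to 8.94, and in no pinna library. It was the only collagen pair with that pattern, which 0.192% of all tested pairs showed. Within Vps50, on the other side, 3 to 8 fragments were listed at E10.5 and 1 in each pinna library.

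A Col1a2 fragment 91.3 kb from the bait (chr6:4414151-4417019) had the reverse pattern, with scores of 5.19 and 5.82 at E12.5, 5.84 and 6.13 at E14.5 and no listing at E10.5. Its scores lay close to the listing limit of 5. These Col1a2 regions were chosen after their values were seen.

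**Figure D3:**
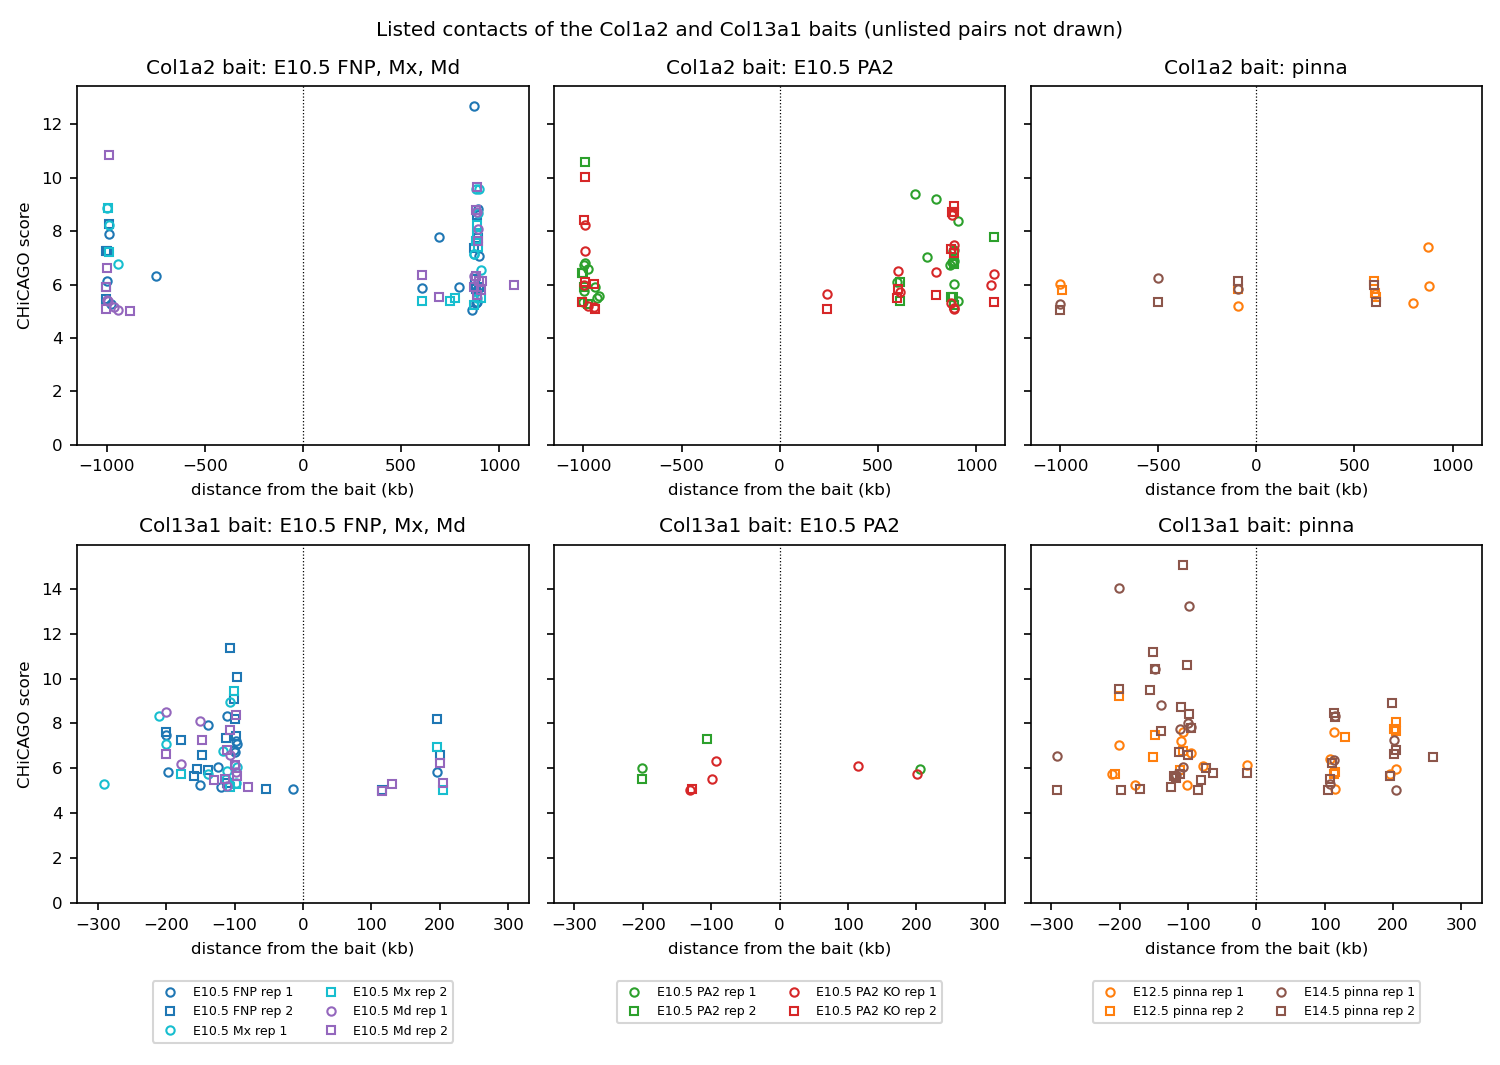
CHiCAGO scores of the Col1a2 bait (top) and the Col13a1 bait (bottom) are plotted against the distance of the contacted fragment in kb. The Col1a2 groups of fragments on the far left and far right thin out in the pinna, while Col13a1 has few listed fragments in wild-type and knockout PA2 and many in the other groups.

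Col6a2 totals were 27.9 and 26.6 for PA2. They were 214 and 65.0 in the E12.5 pinna, the lower value from the merged library, and 182 and 142 in the E14.5 pinna. All pinna values lay above PA2, and those of the 2 pinna stages overlapped. The difference from PA2 was 1.94 ± 0.49 at E12.5 (limma adjusted p = 0.0769) and 2.36 ± 0.49 at E14.5 (adjusted p = 0.00906). The first of these was 2.77 without the merged E12.5 library (adjusted p = 0.0117) and 1.12 without the other E12.5 library (adjusted p = 0.273).

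Col6a1 totals were 97.5 and 48.4 for PA2, 334 and 151 for the E12.5 pinna, and 302 and 218 for the E14.5 pinna, again with no overlap between PA2 and the pinna. Its difference at E14.5 was 1.82 ± 0.52, which did not pass (limma adjusted p = 0.0612). The values for these neighbouring genes share their joint pair and the fragments between them.

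Col24a1, a fibrillar collagen of developing bone, had no listed pair in either PA2 library and totals of 17.6 and 19.2 in the E12.5 pinna and 24.1 and 32.8 in the E14.5 pinna, from 2 to 7 fragments. The fitted difference of 2.73 ± 0.68 (adjusted p = 0.0318) rests on the value of 5 added before the logarithm and is no measure of fold. The shared bait of Col4a1 and Col4a2, also unlisted in PA2, had a difference of 2.80 ± 0.80 and did not pass (adjusted p = 0.0639).

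Of the 40 bait sets, 16 had group means that were higher at each step, 5 lower at each step, 11 higher then lower and 8 lower then higher. The same split over all bait sets is not given here, and bait sets with few listed fragments count by sign alone. It is therefore not read as a direction of the collagen genes. From PA2 to E12.5 no collagen bait set passed in limma, against 0.581% of all bait sets (0.168% higher and 0.412% lower). Of the 40, 8 had an unadjusted p below 0.05, against 2153 of 17225. From E12.5 to E14.5 none passed, against 0.174% (0.0116% higher and 0.163% lower), and Col3a1 alone had an unadjusted p below 0.05, against 8.04%. Col3a1 had 284 and 294 in the E12.5 pinna and 445 and 415 in the E14.5 pinna, above the range of 195 to 334 over the other 12 libraries, with a difference of 0.56 ± 0.27 (adjusted p = 0.608).

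The next collagen genes by p in that step were Col9a2 (0.71 ± 0.35, adjusted p = 0.650), Col1a2 (-0.82 ± 0.43, adjusted p = 0.676) and Col6a5 (-1.51 ± 0.82, adjusted p = 0.679). Col13a1, Col17a1, Col24a1, Col25a1, Col3a1 and Col8a1 had both E14.5 totals above those of all other libraries, 6 of 40 against 3.47% of all bait sets. For Col13a1 and Col24a1 this held only after scaling. Unscaled, Col13a1 had 120.73 in E14.5 replicate 1 against 128.06 in FNP replicate 2. Col24a1 had 23.12 in E14.5 replicate 1 against 24.14 in E12.5 replicate 2. Col6a1, Col6a2, Col8a1, Col16a1 and Col24a1 had all 4 pinna totals above all 10 E10.5 totals, 5 of 40 against 2.11%. For Col8a1 the margin was narrow, 42.9 in E12.5 replicate 1 against 42.1 in FNP replicate 1. For Col24a1 it was 17.6 in E12.5 replicate 1 against 17.2 in Mx replicate 1. Before scaling both overlapped, with 38.57 against 41.04 in FNP replicate 2 for Col8a1 and 15.86 against 17.55 in Mx replicate 1 for Col24a1. No collagen bait set had all pinna totals below all E10.5 totals, against 1.96%.

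With 2 libraries per group the spread came from all 7 groups together, and the 4 calls were lost when only the PA2 and E14.5 libraries were fitted (adjusted p = 0.201 for each), a fit in which no bait set of any gene passed. Col6a2 also lost its call without either PA2 library or E14.5 replicate 1 (adjusted p from 0.0733 to 0.0840), Col1a2 without PA2 replicate 1 (0.122) and Col24a1 without any of the 4 libraries (0.0968 to 0.189).

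**Figure D4:**
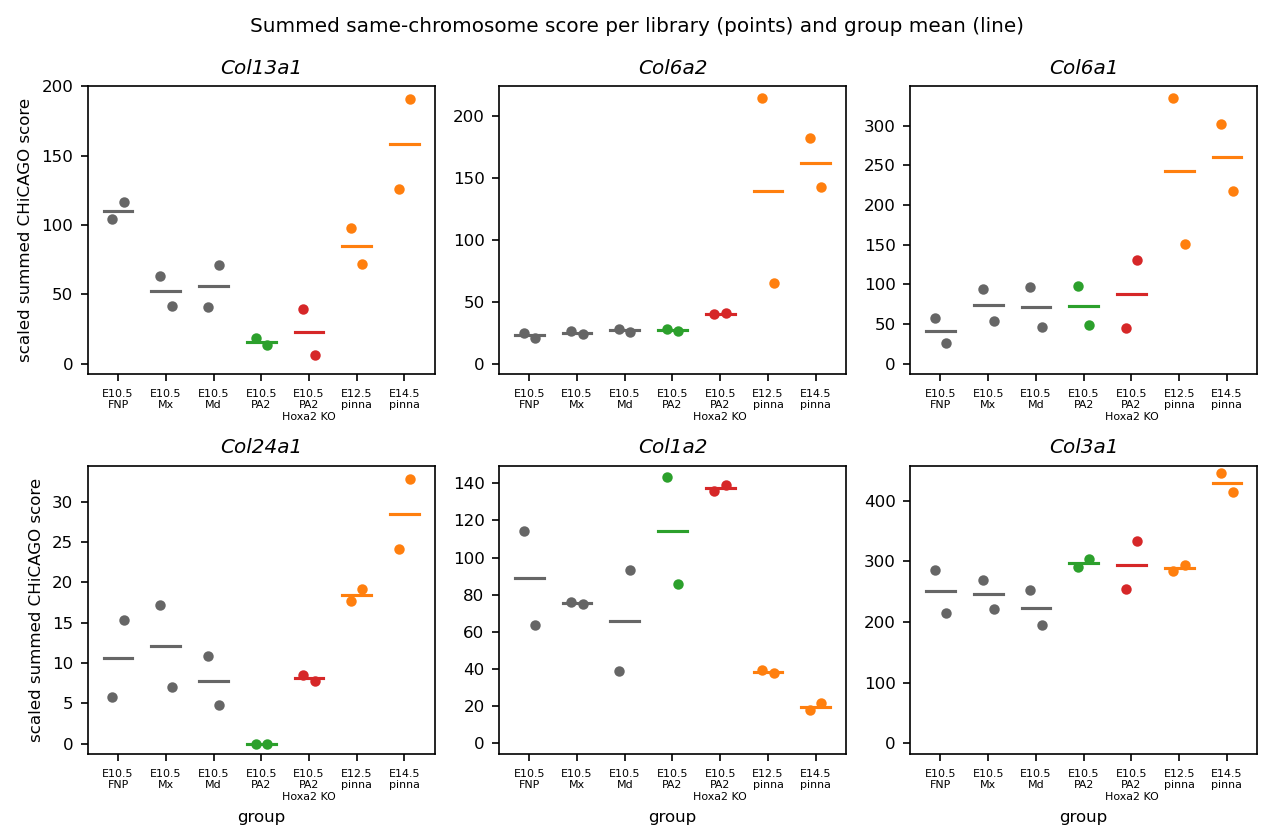
The scaled summed score (vertical axis) of 6 collagen genes is shown per library (points) with the group mean (line) for the 7 groups, with wild-type PA2 in green, the knockout in red and the pinna in orange. Col13a1, Col6a2, Col6a1 and Col24a1 stand higher in the pinna than in PA2, Col1a2 stands lower, and Col3a1 is highest at E14.5.

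**Figure D5:**
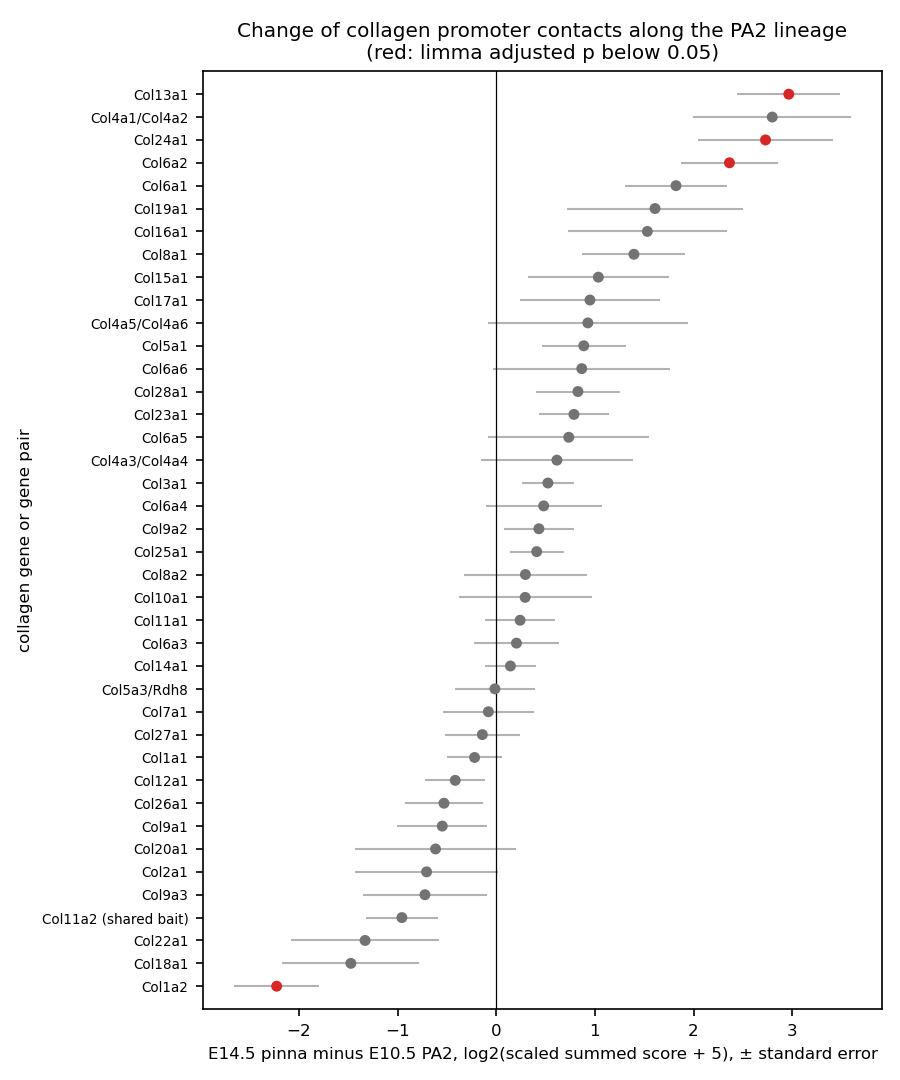
Differences between the E14.5 pinna and E10.5 PA2 are plotted for the 40 collagen bait sets on the scale log2 of the scaled summed score plus 5, with bars of 1 standard error from the limma fit. The 4 bait sets with an adjusted p below 0.05 are red, Col13a1, Col24a1 and Col6a2 on the right and Col1a2 on the left.

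Single pairs were tested in the same way on the inverse hyperbolic sine of the score, over the 159013 pairs listed in at least 4 libraries. From PA2 to E12.5, 13 of 459 collagen pairs passed, 11 higher and 2 lower, against 1.35% of all pairs (0.656% higher and 0.696% lower). Of the 11 higher, 10 were listed in the 4 pinna libraries alone, so they reached the filter only through the groups in which they were high, and the counts and their split give no support to a direction. From PA2 to E14.5, 19 passed, 15 higher and 4 lower, against 1.62% (0.806% higher and 0.815% lower), and 10 of these 15 were again listed in the pinna alone. Of these, 8 and 10 belonged to Col6a1 or Col6a2, and they included the joint pair at E14.5 (difference 1.08 ± 0.22, adjusted p = 0.0349). From E12.5 to E14.5, 4 passed, 2 in each direction, against 0.862% (0.457% higher and 0.405% lower).

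These pair calls rest on small variances of scores that are 0 in whole groups. When the variance of a pair was not allowed below the trend, none of the stage calls passed (adjusted p from 0.298 to 0.607), so that the pairs are given here by their scores.

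A Col8a1 fragment 523 kb from the bait (chr16:58275549-58279964) was listed only in the pinna, at 6.01 and 6.47 in the E12.5 pinna and 8.06 and 12.98 in the E14.5 pinna. Col8a1 codes for a short chain collagen of vessels and the cornea. A fragment inside Col13a1, 98.0 kb from its bait (chr10:61884198-61886190), was listed in both libraries of FNP, Mx, Md and E14.5, at 5.31 to 13.22, and in none of PA2, knockout or E12.5. A Col3a1 fragment 444 kb from the bait (chr1:44866356-44869224) was unlisted in PA2 and E12.5 and had scores from 5.22 to 8.93 in all 10 other libraries.

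Next to the shared bait of Col11a2, a fragment 17.8 kb away (chr17:34053269-34053672) was listed in the 12 earlier libraries, at 5.32 to 8.96, and not at E14.5. Of 2 Col27a1 fragments, 80.9 kb and 98.7 kb from the bait (chr4:63294926-63296473 and chr4:63312628-63314197), the first was absent from wild-type PA2 alone and the second from the knockout and E14.5. Col27a1 codes for a fibrillar collagen of cartilage.

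Among the 4 wild-type populations at E10.5, no collagen bait set passed an F-test in limma, and none of all bait sets did (0%). Of the 40, only Col13a1 had an unadjusted p below 0.05, against 900 of 17225. Its totals were 104 and 116 in FNP, 63.6 and 41.9 in Mx, 41.0 and 71.5 in Md and 18.1 and 13.1 in PA2. FNP lay highest and PA2 lowest without overlap, Mx and Md overlapped, and the span of the group means was 2.49 on the log2 scale (adjusted p = 0.550 from limma, a model fitted over all bait sets). Inside the Col13a1 gene 9 and 9 fragments were listed in FNP and 0 and 1 in PA2.

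The next by p were Col6a4, with a span of 1.51 between Mx and Md (adjusted p = 0.947), Col27a1, with 0.92 between FNP and PA2, and Col24a1, with 1.71 between Mx and PA2 (adjusted p = 0.947 for both). Col27a1 had totals of 92.2 and 89.3 in FNP and 46.6 and 44.4 in PA2, with Mx at 74.3 and 68.6 and Md at 56.4 and 41.9. FNP lay above all other wild-type E10.5 libraries in this gene, and Md and PA2 overlapped.

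Of single pairs, 4 of 459 passed among the E10.5 populations, against 0.494% of all pairs, and none with the bounded variance (adjusted p = 0.734 for each). The Col27a1 fragment 80.9 kb from the bait was listed in all FNP, Mx and Md libraries, at 5.81 to 7.47, and not in PA2. A Col25a1 fragment 452 kb away (chr3:130629955-130632054) was listed in Md (7.02 and 6.85) and PA2 (7.57 and 5.21) and in no other library of the series. A Col6a3 fragment 199 kb away (chr1:90642081-90647123) was absent only from Mx, and a Col14a1 fragment 185 kb away (chr15:55489959-55503431) was listed only in FNP and Md, at 5.09 to 6.18.

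The Hoxa2 knockout asks whether promoter contacts in PA2 depend on Hoxa2, a homeodomain factor that sets the identity of the second arch. No collagen bait set passed between the knockout and wild-type PA2 libraries, against 0.772% of all bait sets (0.0464% higher and 0.726% lower), and 3 had an unadjusted p below 0.05, against 12.8%. The median difference was 0.24, against 0.04 over all bait sets. Col19a1, a FACIT collagen, had 33.0 and 8.96 in the knockout and no listed pair in wild-type PA2 (adjusted p = 0.295).

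Col1a1 had 124 and 154 in the knockout against 204 and 233 in wild-type PA2, with no overlap, and a difference of -0.64 ± 0.28 (adjusted p = 0.342). The shared bait of Col4a1 and Col4a2 had 8.54 and 16.0 against no listed pair (adjusted p = 0.358), as did Col24a1, with 8.5 and 7.73 (adjusted p = 0.403). Of the other collagen genes that passed from PA2 to E14.5, Col6a2 had 39.8 and 40.8 in the knockout against 27.9 and 26.6 in wild-type PA2, with no overlap. Before scaling the gap was smaller, with Col6a2 sums of 29.28 and 32.04 against 26.23 and 26.02. These came from 4 listed fragments in each knockout library and 3 in each wild-type PA2 library. Col1a2 had 136 and 139 in the knockout, within the wild-type range, and Col13a1 had 39.1 and 6.48, on either side of the wild-type values.

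Of single pairs, 8 of 459 passed, 3 higher and 5 lower in the knockout, against 2.09% of all pairs, of which 0.359% were higher and 1.74% lower. With the bounded variance 2 remained past the threshold. Over all genes at least 922 pairs passed in every setting of this comparison, so the count of 2 is not read as particular to collagens. A fragment 95.1 kb from the Col27a1 bait (chr4:63307095-63312627) had scores of 10.57 and 13.00 in wild-type PA2, from 8.43 to 14.67 in the other 10 libraries, and was unlisted in both knockout libraries (difference -3.16 ± 0.28, limma adjusted p = 0.000566, and 0.0132 with the bounded variance).

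A fragment in Gulp1, 549 kb from the Col3a1 bait (chr1:44755016-44770703), had 9.84 and 11.35 in wild-type PA2, from 7.36 to 14.42 in the other 10 libraries, and was unlisted in the knockout (-3.05 ± 0.27, adjusted p = 0.000565, and 0.0218 with the bounded variance). Another Gulp1 fragment, which Col3a1 met in all 14 libraries (chr1:44740656-44748461), had knockout scores of 20.08 and 26.98. A pair listed in the 12 other libraries and in neither knockout library was found for these 2 of 459 collagen pairs and for 1.11% of all tested pairs. The knockout lists were also the shortest, with 113670 and 120854 same-chromosome pairs, and their part in these values was not tested.

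The other 6 were weaker and were lost with the bounded variance (adjusted p from 0.174 to 0.284). They included the Col25a1 fragment 452 kb away, a Col25a1 fragment 415 kb away that was also unlisted in FNP (chr3:130592889-130596366; 5.10 and 8.45 in wild-type PA2), and a Col12a1 fragment 442 kb away (chr9:79271534-79273589) that was listed in the knockout (5.19 and 6.09) and in Md (8.40 and 7.18) alone.

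The genes that modify, secrete and crosslink collagens were taken as a separate list of 32, of which 30 had a bait, in 29 tested bait sets, while Mia3 and Loxl2 had none. None passed from PA2 to E12.5, from E12.5 to E14.5 or among the E10.5 populations, where 5, 0 and 0 had an unadjusted p below 0.05, against 2153, 1385 and 900 of 17225 over all genes. From PA2 to E14.5, 2 of 29 passed, both higher, against 1.13% of all bait sets that were higher. Of these, Loxl1 reached the filter only through the pinna libraries, so the count gives no support to a direction. In the knockout 1 passed, lower, against 0.726% that were lower.

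Adamts2, which cleaves the amino-terminal propeptide from fibrillar procollagens, had PA2 totals of 16.3 and 26.2, E12.5 totals of 75.3 and 81.3, and E14.5 totals of 156 and 135. The stages did not overlap (difference from PA2 to E14.5 of 2.54 ± 0.66, limma adjusted p = 0.0389). Loxl1, which crosslinks elastin and collagen, was unlisted in PA2. It had 11.8 and 13.8 in the E12.5 pinna and 30.5 and 44.3 in the E14.5 pinna (limma adjusted p = 0.0285). Outside the pinna Loxl1 was listed only in Md replicate 1 (15.7) and knockout replicate 2 (7.25), so it reached the filter of 4 libraries only through the pinna. With PA2 unlisted, its fitted difference rests on the value added before the logarithm and is no measure of fold. Both calls were lost when any of the 4 libraries compared was left out (adjusted p from 0.0840 to 0.245).

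Pcolce, which speeds up the removal of the carboxy-terminal propeptide, had 271 and 250 in wild-type PA2 and 37.0 and 55.8 in the knockout, and from 135 to 334 in the other 10 libraries. Both knockout values lay below all others. The difference was -2.39 ± 0.31 (limma adjusted p = 0.000199), and it was lost only in the fit of the PA2 and knockout libraries alone (adjusted p = 0.178).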

How the data were processed

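PCHi-C was measured in 14 libraries of sorted mouse CNCCs. The authors mapped reads with HiCUP to GRCm38/mm10, called contacts with CHiCAGO and deposited 1 list per library of a bait fragment, another fragment and the score, with no score below 5. Read depth was not at hand, and list length stands in for it. The methods of the study call the 2 replicates of each group biologically independent.

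Baits were assigned to genes by GENCODE vM21 start sites. Gene totals (log2, offset 5) and pair scores (inverse hyperbolic sine), each listed in at least 4 libraries, were fitted with limma 3.58.1 (R 4.3.3) as 7 group means with a variance trend, and p-values were adjusted by Benjamini-Hochberg over all bait sets or pairs. An exact permutation of 2 against 2 libraries cannot give a p below 0.333. The fit was tested on simulated data, where it called some unchanged pairs, and the bounded variance was added for that reason after the data had been seen. Collagen genes and lists were chosen with earlier results of these data known. Named are the 12 highest totals, the extremes of each class, each call or, without one, the 4 smallest p-values, up to 8 called pairs by size of the difference, pairs between collagen genes, the 5 strongest constant and the 5 farthest pairs, and called biosynthesis genes. Pairs and regions named beyond this were chosen after their values were seen. Alternatives covered scaling, thresholds, distance, list length, offsets, filters, the samples fitted, merged libraries, a replicate block and leaving out libraries.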

Additional observations from a re-analysis of the deposited data

How the results depend on the processing

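The 4 collagen calls from PA2 to E14.5 became 0 with a score threshold of 10, where 23 of the 40 bait sets could be tested (adjusted p = 0.698 for Col1a2 and 0.254 for Col6a2, with Col13a1 and Col24a1 not tested), and 0 in the fit of the compared groups alone, and ranged from 1 to 3 when a library was left out, with 1 without PA2 replicate 1. From PA2 to E12.5, where none passed, 2 passed among pairs within 2 Mb, 1 without both merged libraries and 0 to 1 when a library was left out. Among the fits that tested it, Col13a1 was called from PA2 to E14.5 in 19 of 20, Col1a2 in 18 of 21, Col6a2 in 16 of 21 and Col24a1 in 12 of 20, each in the same direction. The knockout difference of Col24a1, 1.39, was 0 among pairs within 2 Mb. Over all genes the calls from PA2 to E14.5 ran from 0 to 732 across settings, around 492. They ran from 0 to 222 around 100 at E12.5, from 0 to 36 around 30 between the pinna stages, from 0 to 267 around 133 in the knockout, and from 0 to 6 around 0 among the E10.5 populations. When a library was left out they ran from 152 to 332, 13 to 365, 21 to 52, 45 to 122 and 0 to 1.

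Counts of collagen pairs moved far more. From PA2 to E12.5 the 13 became 21 and 1 with filters at 2 and 6 libraries, 0 with the bounded variance, 0 in the compared groups alone, 25 without the merged libraries and 3 to 18 when a library was left out. From PA2 to E14.5 the 19 became 36, 3, 0 and 0 under the first 4 of these, and 2 to 19 when a library was left out. Between the pinna stages the 4 became 25, 1, 0 and 0, then 16 without the merged libraries, 1 with scores capped at 20 and 2 to 9 when a library was left out. Among the E10.5 populations the 4 became 20, 2, 0 and 14, then 14 without the merged libraries, 0 with scores capped and 0 to 7 when a library was left out. In the knockout the 8 became 37 with a filter at 2 libraries, 2 with the bounded variance, 69 in the compared groups alone, 22 without the merged libraries and 8 to 15 when a library was left out. Over all genes, pair calls ran from 0 to 5115 around 2150, 0 to 7815 around 2578, 0 to 6553 around 1371, 2 to 7507 around 786 and 922 to 27877 around 3331, in the order given here. These ranges are not matched to single settings, so rises and falls of the collagen counts are not read apart from those over all pairs. The causes were not tested.

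Libraries of different groups with the same replicate number had correlations of their deviations between -0.10 and 0.16. These values cannot tell whether such libraries shared a preparation. With a replicate block the collagen bait sets called were 0, 0, 5, 0 and 0 for E12.5 against PA2, E14.5 against E12.5, E14.5 against PA2, the E10.5 populations and the knockout. With a replicate block the collagen pairs called were 1, 1, 2, 0 and 8 in that order. The calls over all genes in this fit are not given here. Across settings they ran from 0 to 732 bait sets for E14.5 against PA2, so these counts are not read as a result about collagens. Scores below 5 are unknown, so no difference can be read where both groups are unlisted.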
